A study of Homo sapiens with 15 samples.

Results

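The 10 genes described here encode 6 Eph receptors (EPHA1, EPHA2, EPHA4, EPHB2, EPHB3 and EPHB4) and 4 ephrins (EFNA1, EFNA5, EFNB1 and EFNB2), out of 60721 genes in the count table. They were chosen by name with earlier results of these data known, and were matched to Ensembl identifiers by symbol. All 10 were among the 17457 genes that passed the filter on low counts. They were measured by poly(A) RNA sequencing in 15 libraries of MCF-10A, a non-tumorigenic human mammary epithelial line. There were 5 genotypes with 3 libraries each, namely unmodified parental cells, cells carrying an empty vector (EV), and 3 lines in which NF1 was edited by guide 1, by guide 2 or by both guides. NF1 encodes neurofibromin, which lowers RAS activity. No line received a further treatment, and each was grown in the same medium with horse serum, EGF, hydrocortisone, cholera toxin and insulin. The labels call the 3 libraries of a genotype biological replicates and do not say whether a line is 1 clone, so p-values measure the spread between these libraries.

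Eph receptors are the largest family of receptor tyrosine kinases, and ephrins are their membrane-bound ligands on neighbouring cells. Ephrin-A ligands are held by a lipid anchor and mostly bind EphA receptors, whereas ephrin-B ligands span the membrane and mostly bind EphB receptors. EPHA4 also binds ephrin-B ligands. Binding signals into both cells and governs repulsion, adhesion and the sorting of cells within epithelia, and EPHA2 is a transcriptional target of the RAS and ERK pathway.

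Library totals ranged from 46129559 to 78976917 counts, so that 3 counts, taken as the detection floor, equalled 0.038 to 0.065 CPM (counts scaled to the library total). Such floors cover counting error only. NF1 averaged 150.8 ± 9.30 CPM in parental and 123.8 ± 8.87 CPM in empty-vector libraries, and 47.4 ± 3.87, 29.4 ± 2.27 and 28.1 ± 1.81 CPM with guide 1, guide 2 and both guides (SD, n = 3 each). Guide 2 replicate 2 stood apart, with -91.89 on the first principal component (46.4% of the variance) where guide 2 replicates 1 and 3 had 45.96 and 47.8. NF1 was 31.4 CPM in it, close to the 27.0 and 29.8 CPM of replicates 1 and 3, while several epithelial markers were not. CDH1, the epithelial cadherin, was 37.8 to 127.3 CPM in empty-vector and parental libraries apart from parental replicate 2 (1.79 CPM), and 14.8 to 23.4 CPM with both guides. It was 0.0191 to 0.158 CPM in guide 1 and in guide 2 replicates 1 and 3, at or near the floor, but 91.4 CPM in guide 2 replicate 2. TP63, the basal cell factor, was at 0.0542 to 0.203 CPM in those same 5 libraries and at 75.8 CPM in guide 2 replicate 2. Other markers of the same lists went differently. The keratin KRT8 was 70.2 CPM in guide 2 replicate 2 against 159.3 and 166.6 CPM in replicates 1 and 3, and the basal integrin ITGB4 was 694.4, 832.3 and 372.7 CPM in guide 1 against 604.7, 665.4 and 781.8 CPM in empty-vector libraries. Of the leukocyte markers, PTPRC and CD3E did not exceed the floor in any library, while CD68 reached at most 8 counts. The endothelial cadherin CDH5 did not exceed the floor either. The endothelial markers KDR (1.72 to 11.0 CPM) and PECAM1 (0.585 to 1.99 CPM) were above it in each library.

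For the genes whose data the promoter sequence helps to place, the 250 bases before the transcription start are given from RefSeq (GRCh38.p14), in which all 10 genes had an entry. EPHB2 and EPHB3 are shown as the receptors called in at least 1 comparison of an edited line with the empty vector, and EPHA2 as the most abundant receptor. Capitals mark matches, on either strand, to a GC box (GGGCGG), an E-box (CACCTG) or a cyclic AMP element (TGACGTCA).
EPHB2 (chr1:22710588-22710837, plus strand): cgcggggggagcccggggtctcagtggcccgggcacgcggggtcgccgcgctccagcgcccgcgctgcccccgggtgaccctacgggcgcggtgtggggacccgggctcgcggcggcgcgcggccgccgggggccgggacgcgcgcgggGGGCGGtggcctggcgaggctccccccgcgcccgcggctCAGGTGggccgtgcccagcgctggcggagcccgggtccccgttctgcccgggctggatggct
EPHB3 (chr3:184561535-184561784, plus strand): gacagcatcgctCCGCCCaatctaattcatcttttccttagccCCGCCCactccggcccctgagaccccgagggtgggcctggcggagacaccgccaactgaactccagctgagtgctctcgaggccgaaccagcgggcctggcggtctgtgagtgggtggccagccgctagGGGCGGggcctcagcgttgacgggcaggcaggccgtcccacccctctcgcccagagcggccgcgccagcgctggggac
EPHA2 (chr1:16156070-16156319, minus strand): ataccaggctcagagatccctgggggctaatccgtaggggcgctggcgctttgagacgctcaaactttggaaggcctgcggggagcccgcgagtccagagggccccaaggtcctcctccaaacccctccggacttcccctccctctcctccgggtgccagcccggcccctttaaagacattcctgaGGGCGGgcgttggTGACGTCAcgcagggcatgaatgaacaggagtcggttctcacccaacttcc
The EPHB2 window was 84.8% G and C, with 1 GC box and 1 E-box. The EPHB3 window was 70% G and C, with 3 GC boxes, and the EPHA2 window was 63.2% G and C, with 1 GC box and 1 cyclic AMP element. Among 35116 promoter windows of the same length, 42.6% held a GC box, 17.5% this E-box and 1.65% this cyclic AMP element. At the end nearest the start, the EPHA2 and EPHB3 windows overlap GENCODE exons by 18 and 1 bases. The EFNA1 window lies wholly within GENCODE exons and is not shown. None of the 10 windows, EFNA1 included, held an AP-1 site (TGACTCA, found in 4.2% of windows) or the ETS core CCGGAAG (8.52%). The motifs overlapped no other motif searched in these 3 windows, and a match or its lack is a description of the letters.

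To compare genes, CPM was divided by the length of the merged exons in GENCODE release 29. On this scale EPHA2 and EFNB2 led the family of 22 genes, with medians over the 15 libraries of 51.5 CPM per kb (range 42.9 to 59.4) and 45.2 CPM per kb (29.7 to 49.9). EFNA5 and EPHB4 followed at 12.3 and 12.1 CPM per kb, then EFNB1 at 7.93 CPM per kb with a wide range of 3.92 to 23.4. EFNA1 had a median of 2.59, EPHB2 of 1.25, EPHA4 of 0.748, EPHB3 of 0.409 and EPHA1 of 0.242 CPM per kb. In the plot of levels per kb the scarce EPHA1 has a long range, from 0.0232 to 0.80 CPM per kb, and EPHA2 a short one.

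**Figure D1:**
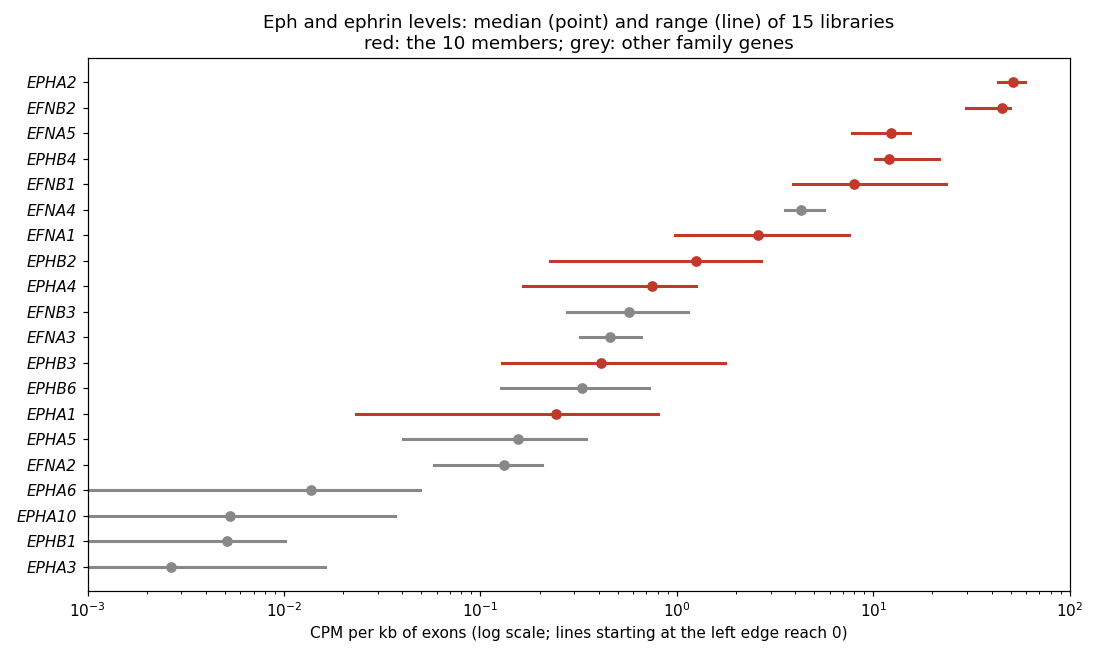
Levels of Eph receptors and ephrins in CPM per kb of exons on a log scale, with the median of 15 libraries as a point and their range as a line; the 10 genes described are red and other family genes grey. EPHA2 and EFNB2 have medians of 51.5 and 45.2 CPM per kb, and EPHA7 and EPHA8, with a median of 0, are not drawn.

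Within each class 1 gene held the largest share of the summed level per kb. EPHA2 made up 97.0% ± 0.279 of all EphA receptor level in empty-vector cells and 97.4% to 98.0% as group means in the other genotypes. EPHB4 made up 80.1% ± 3.05 of the EphB receptors in empty-vector cells, 84.6% ± 4.77 in parental cells and 88.7% ± 0.647 in guide 1 cells. EFNA5 was 52.6% ± 8.34 of the ephrin-A ligands in empty-vector cells, 59.7% ± 2.98 in parental cells and 66.3% ± 1.43 in guide 1 cells. EFNA1 was 26.6% ± 8.14, 13.4% ± 2.11 and 9.52% ± 3.02 in the same order (SD, n = 3 each). In empty-vector replicate 3 these 2 ligands were nearest, with EFNA5 at 43.1% and EFNA1 at 36.0%. In the ephrin-B class EFNB1 made up 36.4% in empty-vector replicate 3 and 43.8% in guide 2 replicate 2, against 7.96% and 8.01% in guide 2 replicates 1 and 3. The group means of the summed ephrin-B level lay between 50.8 ± 2.27 CPM per kb with guide 2 and 56.0 ± 2.75 CPM per kb in parental cells, a difference that was not tested.

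The main comparison asked which of the 10 genes differed between each NF1-edited line and the empty vector. EPHB2, EPHB3 and EFNA1 fell in guide 1 cells, and EPHB2 and EFNA1 fell in guide 2 cells. No gene of the 10 passed the test with both guides or in parental cells against the empty vector. An unadjusted p under 0.05 was found for 2 of 10 genes in each, against 14% and 19.8% of all tested genes. DESeq2 called 1 in each (4.32% and 9.22% of all genes), and voom with sample quality weights called 8 and 6 (26.7% and 36.3%). The test was edgeR's quasi-likelihood test on counts, fitted to all 17457 genes and 15 libraries, with Benjamini-Hochberg adjusted p under 0.05 as the call. Of all tested genes it called 5.88% for guide 1 (4.57% lower), 3.94% for guide 2 (2.73% lower), 0.962% for both guides (0.693% lower) and 4.37% for parental cells (2.84% lower). Over the 10 pairs of genotypes, 5 of 100 tests of these genes were called, each of them lower than the empty vector. In the pairs without the empty vector few of all tested genes were called, between 0.0401% and 0.275% in each pair. The edited-line comparisons share the 3 empty-vector libraries.

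**Figure D2:**
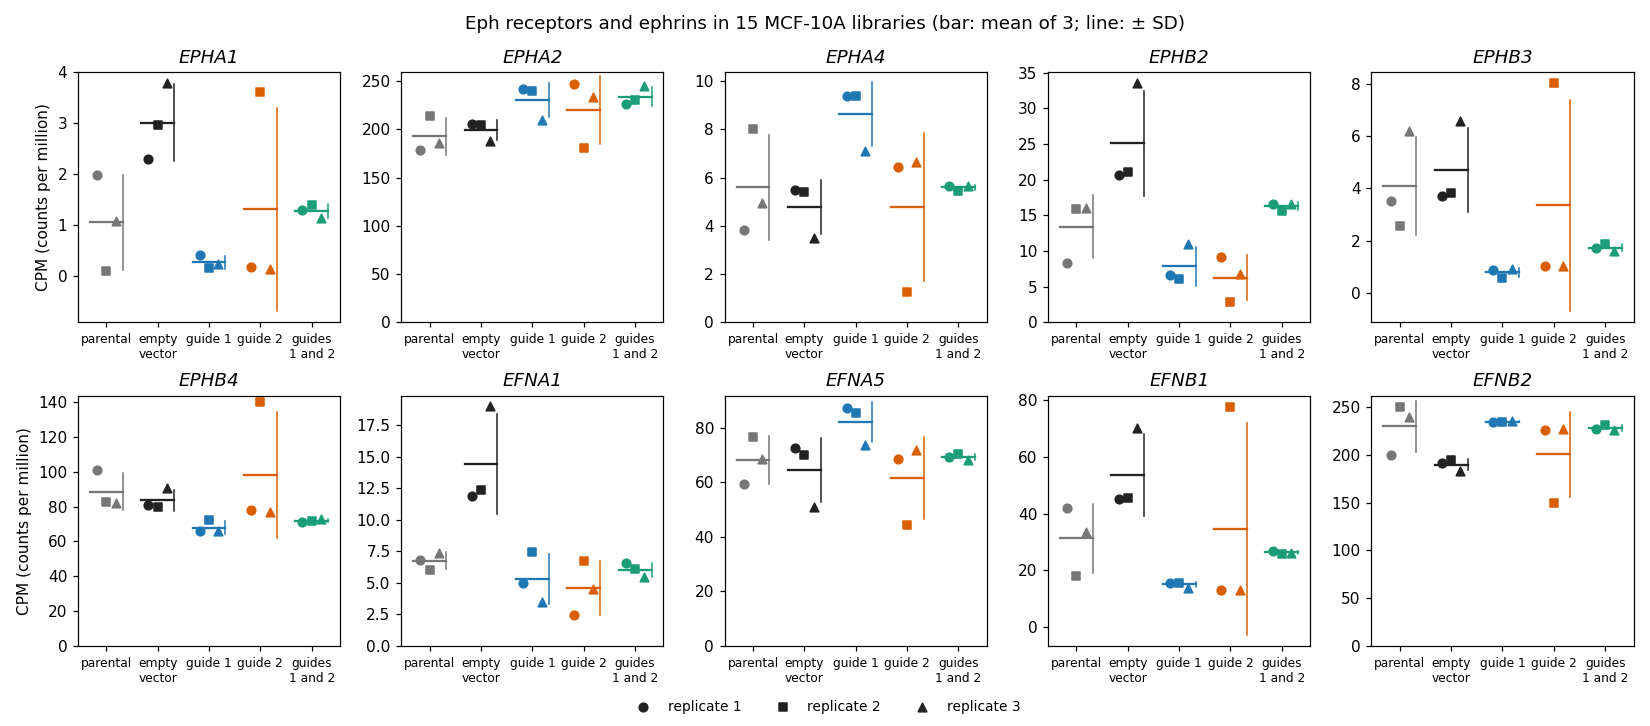
CPM of the 10 genes in each library by genotype, on axes of their own, with a bar at the mean of 3 libraries, a line for ± SD and a marker shape for each replicate number. The 3 empty-vector libraries lie above the other 12 for EPHB2 and EFNA1, and guide 2 replicate 2 lies above the other 14 for EPHB3, EPHB4 and EFNB1.

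EPHB2 (chromosome 1, 22710839 to 22921500, plus strand) is a receptor for ephrin-B ligands that keeps epithelial cell populations apart. It was at 20.6, 21.1 and 33.6 CPM in the empty-vector libraries and at 8.31, 15.9 and 16.0 CPM in parental libraries. It was at 6.59, 6.01 and 11.0 CPM with guide 1, 9.11, 2.83 and 6.75 CPM with guide 2, and 16.6, 15.7 and 16.6 CPM with both guides. The 12 libraries outside the empty vector reached at most 16.6 CPM and so did not overlap with it. The share of all tested genes for which this holds was not computed. Relative to the empty vector EPHB2 fell by 1.69 with guide 1 (log2 units, SE 0.388, edgeR adjusted p 0.0249) and by 2.02 with guide 2 (SE 0.393, adjusted p 0.0156). The values were -0.65 with both guides (SE 0.379, edgeR adjusted p 0.494) and -0.94 in parental cells (SE 0.381, adjusted p 0.189). Against parental cells the log2 difference was -0.75 (edgeR adjusted p 0.281) for guide 1, -1.08 (0.526) for guide 2 and 0.29 (0.855) for both guides. The order of mean levels was empty vector, both guides, parental, guide 1, guide 2, and no pair of neighbours in it passed the test. Without empty-vector replicate 3, the highest library, the adjusted p rose to 0.123 for guide 1 and 0.074 for guide 2, and without guide 1 replicate 1 or 2 the guide 1 value was 0.11 or 0.124. With only the guide 2 and empty-vector libraries in the fit, the guide 2 call was lost (edgeR adjusted p 0.154).

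EFNA1 (chromosome 1, 155127460 to 155134857, plus strand) encodes ephrin-A1, a ligand of EPHA2. Its empty-vector libraries had 11.9, 12.4 and 19.0 CPM, its parental libraries 6.84, 6.05 and 7.36 CPM. Guide 1 libraries had 4.96, 7.47 and 3.51 CPM, guide 2 libraries 2.49, 6.72 and 4.55 CPM, and libraries with both guides 6.57, 6.10 and 5.43 CPM. The empty-vector libraries again lay above the other 12, of which the highest had 7.47 CPM. How many of all tested genes separate so was not computed. With guide 1 EFNA1 fell by 1.45 (log2 units, SE 0.332, edgeR adjusted p 0.0245) and with guide 2 by 1.67 (SE 0.334, adjusted p 0.0175). The log2 fold change was -1.28 (SE 0.331, adjusted p 0.0881) with both guides and -1.13 (SE 0.329, adjusted p 0.0706) in parental cells. Against parental cells no edited line passed the test, with -0.32 (edgeR adjusted p 0.569), -0.54 (0.805) and -0.15 (0.919) for guide 1, guide 2 and both guides. Mean levels ran from the empty vector through parental, both guides and guide 1 to guide 2, and no neighbouring pair passed the test. Leaving out empty-vector replicate 3 gave adjusted p of 0.122 for guide 1 and 0.0828 for guide 2, leaving out guide 1 replicate 1 or 3 gave 0.0999 or 0.0656 for guide 1, and leaving out guide 2 replicate 3 gave 0.0565 for guide 2. A fit of the guide 2 and empty-vector libraries alone gave an edgeR adjusted p of 0.172.

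EPHB3 (chromosome 3, 184561784 to 184582409, plus strand) is a receptor for ephrin-B ligands that acts beside EPHB2 in epithelia. Empty-vector libraries had 3.71, 3.84 and 6.57 CPM of it, and parental libraries 3.51, 2.57 and 6.17 CPM. It had 0.86, 0.58 and 0.92 CPM with guide 1, 1.01, 8.01 and 1.03 CPM with guide 2, and 1.71, 1.85 and 1.59 CPM with both guides. Guide 2 replicate 2 was the highest of the 15 libraries, and the other 8 edited libraries (0.58 to 1.85 CPM) lay below the 6 control libraries (2.57 to 6.57 CPM). This split is lost when guide 2 replicate 2 is included, and its share of all genes was not computed. Guide 1 cells had less EPHB3, which fell by 2.60 in log2 units (SE 0.687, edgeR adjusted p 0.0447). Blocking on replicate number gave an edgeR adjusted p of 0.081, and in 11 of the 15 fits that each left out 1 library it passed 0.05, up to 0.174 without guide 1 replicate 2 and 0.172 without empty-vector replicate 3. The fits that kept the call left out guide 2 replicate 1, 2 or 3 or parental replicate 2. Guide 2 gave -0.52 (SE 0.636, adjusted p 0.717), both guides -1.48 (SE 0.655, adjusted p 0.334) and parental cells -0.25 (SE 0.634, adjusted p 0.878). Against parental cells guide 1 had -2.35 (SE 0.683, edgeR adjusted p 0.166). The order of means was empty vector, parental, guide 2, both guides, guide 1, with no neighbouring pair past the test.

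EFNB1 (chromosome X, 68828997 to 68842147, plus strand) encodes ephrin-B1, a transmembrane ligand of EphB receptors. It had 45.1, 45.4 and 70.2 CPM in empty-vector and 42.1, 18.2 and 33.6 CPM in parental libraries. It had 15.7, 15.5 and 13.9 CPM with guide 1, 13.0, 77.6 and 13.2 CPM with guide 2, and 27.0, 25.9 and 26.3 CPM with both guides. Guide 1 libraries lay below each control library, and guide 2 replicate 2 was the highest of all 15. Differences from the empty vector in log2 units were -1.85 with guide 1 (SE 0.563, edgeR adjusted p 0.0736), -0.66 with guide 2 (SE 0.546, adjusted p 0.568), -1.05 with both guides (SE 0.551, adjusted p 0.437) and -0.81 in parental cells (SE 0.548, adjusted p 0.459).

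EPHA1 (chromosome 7, 143390289 to 143408892, minus strand), an EphA receptor of epithelia, was the scarcest of the 10. It had 2.29, 2.97 and 3.79 CPM in empty-vector libraries, 1.98, 0.11 and 1.08 CPM in parental libraries, and 0.42, 0.16 and 0.24 CPM with guide 1. Guide 2 libraries had 0.18, 3.61 and 0.14 CPM, and libraries with both guides 1.30, 1.41 and 1.14 CPM. The values at the low end rest on few reads, such as 7 counts in parental replicate 2 and 10 counts each in guide 2 replicates 1 and 3. Guide 1 differed by -3.49 (log2 units, SE 1.12, edgeR adjusted p 0.0855), and those of guide 2, both guides and parental cells were -1.24, -1.26 and -1.55 (adjusted p 0.546, 0.657 and 0.433).

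EPHB4 (chromosome 7, 100802565 to 100827521, minus strand), the main receptor of ephrin-B2, had 80.7, 79.7 and 90.5 CPM in empty-vector and 100.9, 82.6 and 82.2 CPM in parental libraries. It had 66.1, 72.0 and 65.7 CPM with guide 1, 77.7, 139.7 and 76.7 CPM with guide 2, and 71.1, 71.5 and 72.8 CPM with both guides. The 8 edited libraries other than guide 2 replicate 2 (65.7 to 77.7 CPM) lay below the 6 control libraries (79.7 to 100.9 CPM). With that library included, edited and control libraries overlapped, and the share of all genes split in this way was not computed. In the test the log2 differences from the empty vector were small, at -0.31 (SE 0.181, edgeR adjusted p 0.354), 0.21 (SE 0.181, 0.58) and -0.24 (SE 0.181, 0.631) for guide 1, guide 2 and both guides.

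EPHA2 (chromosome 1, 16124337 to 16156087, minus strand) had 205.9, 204.9 and 187.9 CPM in empty-vector and 178.4, 214.3 and 185.8 CPM in parental libraries. The edited lines had 241.8, 240.3 and 209.7 CPM with guide 1, 247.2, 180.3 and 233.5 CPM with guide 2, and 226.0, 230.9 and 244.8 CPM with both guides. Each library with guide 1 or both guides exceeded each empty-vector library, and guide 2 replicate 2 lay below all of them. The log2 fold changes of 0.20 (SE 0.114), 0.13 (SE 0.114) and 0.21 (SE 0.114) had edgeR adjusted p of 0.341, 0.586 and 0.462. Against parental cells they were 0.28, 0.21 and 0.29 (edgeR adjusted p 0.22, 0.759 and 0.405).

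EFNB2 (chromosome 13, 106489731 to 106535662, minus strand), the ephrin-B2 ligand, had 191.1, 194.5 and 183.0 CPM in empty-vector and 199.8, 250.4 and 239.4 CPM in parental libraries. It was almost level within guide 1 (234.3 to 235.6 CPM) and both guides (225.8 to 231.5 CPM), and 226.0, 149.1 and 226.6 CPM with guide 2. Parental, guide 1 and both-guide libraries lay above the empty vector without overlap, with log2 fold changes of 0.25, 0.30 and 0.25 (edgeR adjusted p 0.334, 0.215 and 0.457). An antisense gene covers 26.2% of the EFNB2 exon length, and the use of strand in counting is not given in the sources used here, so reads of the pair cannot be told apart.

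EFNA5 (chromosome 5, 107376889 to 107670895, minus strand), the main ephrin-A ligand here, ranged from 51.1 to 72.5 CPM in empty-vector, 59.3 to 76.7 in parental, 73.6 to 87.3 in guide 1 and 68.2 to 70.6 CPM in both-guide libraries. Guide 2 replicate 2 was lowest at 44.5 CPM, with 68.6 and 72.0 CPM in the other guide 2 libraries. Guide 1 was above the empty vector in each library, by 0.34 in log2 units (SE 0.171, edgeR adjusted p 0.277). EPHA4 (chromosome 2, 221418027 to 221574202, minus strand), the receptor with the broadest ligand binding, had 5.48, 5.40 and 3.49 CPM in empty-vector and 9.40, 9.38 and 7.12 CPM in guide 1 libraries, a log2 difference of 0.84 (SE 0.455, edgeR adjusted p 0.312). It ranged from 3.81 to 8.02 CPM in parental and 5.46 to 5.66 CPM in both-guide libraries, and was 6.43, 1.25 and 6.66 CPM with guide 2.

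Read together, the 10 genes split by direction in guide 1 cells. All 10 had guide 1 libraries clear of the empty-vector libraries, 6 below (18.1% of all tested genes) and 4 above (18.1%), where 36.2% did not overlap either way. The genes below were EPHA1, EPHB2, EPHB3, EPHB4, EFNA1 and EFNB1, and those above were EPHA2, EPHA4, EFNA5 and EFNB2. With both guides 8 of the 10 did not overlap, against 37.7% of all genes, with 6 below (17.2%) and 2 above (20.5%). In parental cells 5 did not, against 32.1%, with 4 below (14.1%) and 1 above (18%). In guide 2 cells 2 did not, both below (10.9%), against 23.1%. The median log2 fold change of the 10 was -0.88 for guide 1, -0.30 for guide 2, -0.45 for both guides and -0.16 for parental cells, beside 0.02, 0.03, -0.001 and 0.01 over all tested genes. An unadjusted p under 0.05 was found for 6 of the 10 with guide 1 (21.4% of all genes) and 2 with guide 2 (18.9%). Since the 10 were chosen with earlier results of these data known, the shares beside them are a description and carry no test.

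**Figure D3:**
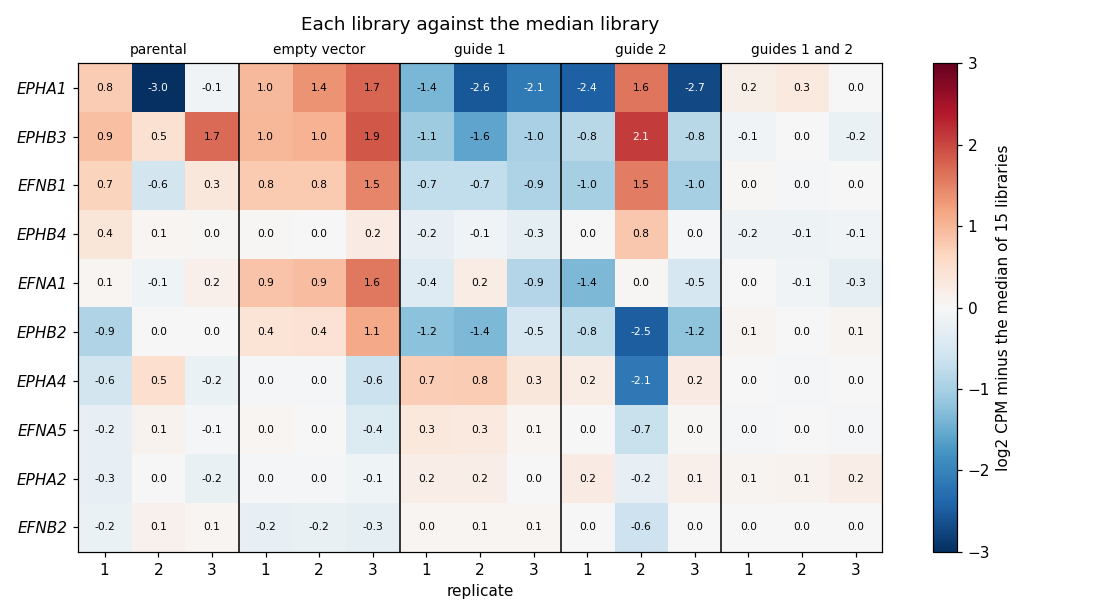
Log2 CPM of each gene in each library minus its median over the 15 libraries, with genotypes between black lines. EPHA1, EPHB3 and EFNB1 are low in guide 1 and in guide 2 replicates 1 and 3 and high in guide 2 replicate 2, where EPHB2 and EPHA4 are lowest.

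Guide 2 replicate 2 stood at one end of the range for 7 of the 10 genes. Of the 15 libraries it was the highest for EPHB3, EPHB4 and EFNB1 and the lowest for EPHA4, EPHB2, EFNA5 and EFNB2. The share of all tested genes with this library at an end was not computed. Of genes with at least 20 counts in a pair, 76.8% and 76.6% differed beyond counting noise between it and replicates 1 and 3. EPHA1, EPHB3 and EFNB1 were lower in the 5 edited libraries with CDH1 near the floor than in the empty-vector libraries and guide 2 replicate 2, and parental replicate 2, with CDH1 at 1.79 CPM, had the lowest EPHA1 of all. In that library EFNB1 was 18.2 CPM, the lowest control value, but EPHB3 was 2.57 CPM, above the 8 edited libraries other than guide 2 replicate 2. EPHB2 was different, at 2.83 CPM in guide 2 replicate 2 with its high CDH1 and 33.6 CPM in empty-vector replicate 3, whose CDH1 was the highest at 127.3 CPM. The summed basal list (6 of 6 markers tested) ran from 1049 to 1905 CPM in guide 1, 1228 to 8576 in guide 2, 1698 to 1965 with both guides, 3488 to 5118 in empty-vector and 1514 to 4769 CPM in parental libraries. The summed general epithelial list (4 of 5 tested) ran from 255.1 to 279.8 CPM in guide 1, 318.5 to 458.1 in guide 2, 361.5 to 375.4 with both guides, 398.8 to 486.2 in empty-vector and 311.4 to 348.1 CPM in parental libraries. These sums were mostly KRT8 and KRT18, which were 162.5 to 172.1 and 176.6 to 186.2 CPM with both guides. The mesenchymal list (6 of 7 tested, COL3A1 at or under the floor) had sums of 14818 to 20624, 3725 to 15571, 11225 to 11527, 13315 to 15122 and 8292 to 13700 CPM in the same order. These sums were mostly FN1, which alone was 12621 to 18543 CPM in guide 1 and 2818 CPM in guide 2 replicate 2. COL1A1 of the same list was 6.41, 5.90 and 2.88 CPM in guide 1, below the 12.3, 13.6 and 20.0 CPM of empty-vector libraries. The part of this epithelial difference in the results above was not tested, and in bulk RNA fewer cells of a kind and less RNA per cell cannot be told apart.

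When guide 2 replicate 2 was left out of the fit, the calls grew in number and included higher genes. For guide 1 against the empty vector 8 genes were called, where 18.1% of all genes were. EPHA1 (-3.52), EPHB2 (-1.70), EPHB3 (-2.61), EPHB4 (-0.32), EFNA1 (-1.45) and EFNB1 (-1.85) fell, and EPHA4 (0.83) and EFNB2 (0.29) rose, with edgeR adjusted p between 0.000235 and 0.0265. For guide 2 the 5 genes EPHA1 (-4.24), EPHB2 (-1.70), EPHB3 (-2.24), EFNA1 (-2.06) and EFNB1 (-2.07) fell, against 14.5% of all genes called (9.42% lower), with edgeR adjusted p between 0.000762 and 0.00464. With both guides EPHB3 (-1.49), EFNA1 (-1.29) and EFNB1 (-1.06) fell (edgeR adjusted p 0.014, 0.0158 and 0.0211), against 6.7% of all genes (4.99% lower). In parental cells EPHB2 (-0.95), EFNA1 (-1.14) and EFNB1 (-0.82) fell and EFNB2 (0.23) rose (edgeR adjusted p 0.0341, 0.0151, 0.0356 and 0.0437), against 13.9%. Of the 15 fits that each left out 1 library, this one gave the most calls in each of these comparisons. Leaving out empty-vector replicate 3 gave 0 calls for guide 1, guide 2, both guides and parental cells. In that order 249, 170, 31 and 157 of all 17936 tested genes were then called. With all 15 libraries these numbers were 1026, 687, 168 and 762 of 17457, so calls among all genes fell as well. Guide 2 replicate 2 is in neither group of the guide 1 comparison but enters its shared estimate of spread. For EFNB1 with guide 1 the log2 fold change was -1.85 in both fits, while the SE was 0.563 with it and 0.244 without.

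**Figure D4:**
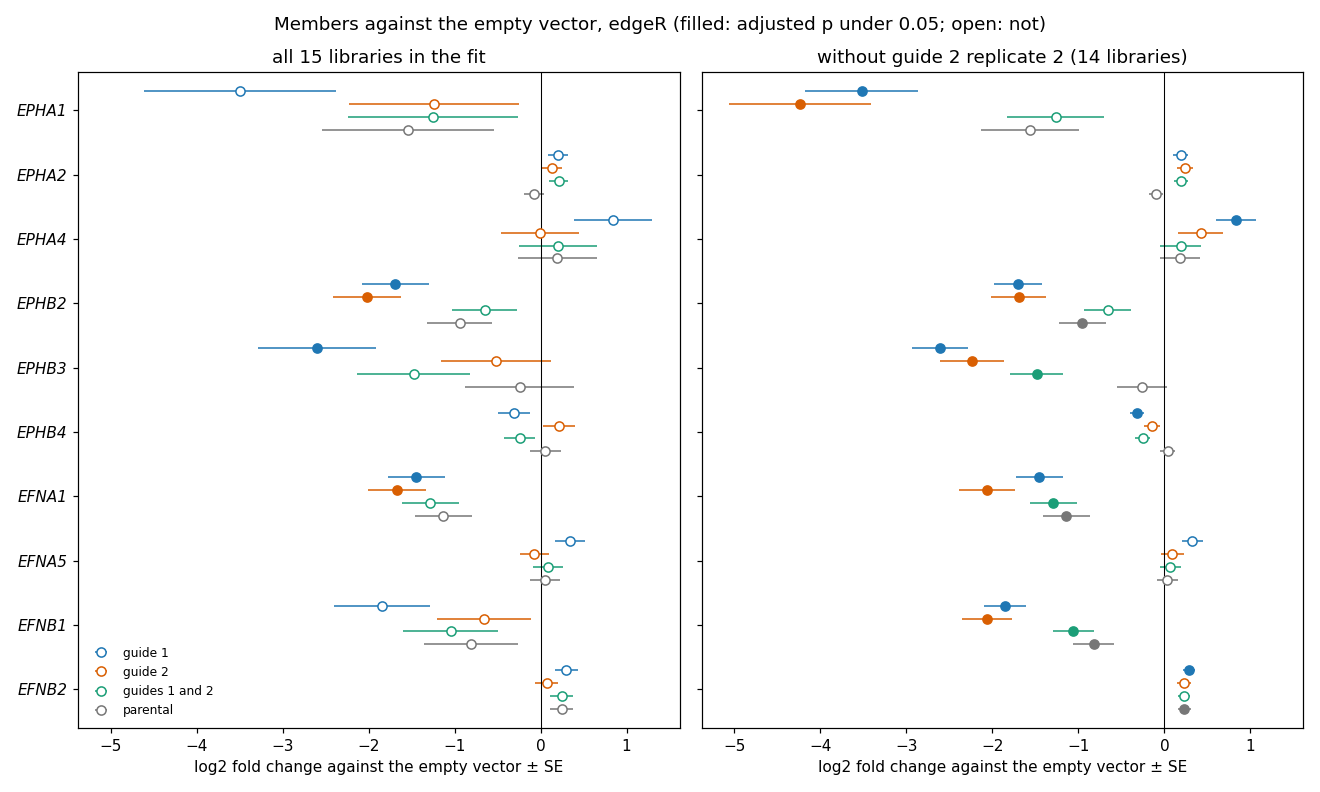
Log2 fold change against the empty vector ± SE from edgeR for guide 1, guide 2, both guides and parental cells, with all 15 libraries (left) and without guide 2 replicate 2 (right); filled points have an adjusted p under 0.05. EPHB3 with guide 2 moves from -0.52 to -2.24 and EFNB1 with guide 2 from -0.66 to -2.07.

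The comparison with parental cells asked whether the differences hold against the other control. With all 15 libraries none of the 10 genes passed edgeR's test for guide 1, guide 2 or both guides against parental cells, where 0.149%, 0.0516% and 0.195% of all genes did. An unadjusted p under 0.05 was found for 2, 1 and 1 of the 10, against 19.9%, 7.37% and 9.98% of all genes. DESeq2 called 1, 0 and 0 (3.68%, 0.785% and 2.1% of all genes). Voom with sample quality weights called 8, 6 and 3, where it called 52.9%, 32.5% and 21.3% of all genes. Without guide 2 replicate 2, EPHB3 (-2.35), EPHB4 (-0.36) and EFNB1 (-1.03) fell and EPHA2 (0.28) rose in guide 1 cells (edgeR adjusted p 0.00153, 0.0189, 0.0179 and 0.0388), against 14.5% of all genes called. In guide 2 cells EPHB3 (-1.98) and EFNB1 (-1.24) fell and EPHA2 (0.33) rose (edgeR adjusted p 0.0101, 0.0223 and 0.0487), against 5.96%. With both guides no gene was called, EPHB3 being nearest at -1.23 (edgeR adjusted p 0.052), against 2.62%. EPHB2 and EFNA1, which fell against the empty vector, were not called against parental cells in either fit.

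Averaging the 3 edited lines and both controls gave no call among the 10 genes (edgeR, 1.51% of all genes called, 5 of the 10 at an unadjusted p under 0.05 against 15.8% of all genes). EFNA1 at -0.90 (SE 0.208, edgeR adjusted p 0.0519), EPHB2 at -0.98 (SE 0.242, 0.0643), EPHB3 at -1.41 (SE 0.41, 0.114) and EPHA2 at 0.22 (SE 0.074, 0.164) were nearest. DESeq2 called 3 of the 10 genes and 5.32% of all genes, and voom with sample quality weights called all 10 and 42% of all genes. Without guide 2 replicate 2, 7 were called against 18% of all genes: EPHA1 (-2.23), EPHB2 (-0.88), EPHB3 (-1.98), EPHB4 (-0.26), EFNA1 (-1.03) and EFNB1 (-1.25) fell and EPHA2 (0.25) rose, with edgeR adjusted p between 9.61e-05 and 0.00706.

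The edited lines were then compared with each other. None of the 10 genes passed edgeR's test between guide 1 and guide 2 (0.0401% of all genes called), between both guides and guide 1 (0.275%) or between both guides and guide 2 (0.149%). In that order 3, 1 and 2 of the 10 had an unadjusted p under 0.05, against 15.2%, 13% and 5.8% of all genes. DESeq2 called 0, 0 and 1 (1.17%, 2.19% and 0.859% of all genes), and voom with sample quality weights 3, 6 and 4 (20.2%, 46.5% and 15.2%). EPHA1 and EPHB3 had log2 differences of 2.24 and 1.12 between both guides and guide 1 (edgeR adjusted p 0.405 and 0.483), and their guide 2 libraries overlapped with both guides. EPHB2 had a log2 difference of 1.04 from guide 1 (SE 0.383, edgeR adjusted p 0.304) and 1.37 from guide 2 (SE 0.387, 0.37). The 3 both-guide libraries of EPHB2 lay above each guide 1 and guide 2 library. Without guide 2 replicate 2 the difference from guide 1 was 1.04 and just passed (edgeR adjusted p 0.0499, 4.55% of all genes called), while no gene passed between guide 1 and guide 2 (0.162%) or between both guides and guide 2 (1.83%).

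The other 12 genes of the family were mostly scarce, and 6 of them were tested. EFNA4, a ligand of which 15.0% of the exon length is shared with another gene on the same strand, was the highest at a median of 4.28 CPM per kb. EFNA3 shares 44.7% of its exon length with that gene, so both levels are uncertain. EFNB3, EFNA3, EPHB6 and EPHA5 had medians of 0.570, 0.459, 0.329 and 0.156 CPM per kb. EPHA7 had no count in any of the 15 libraries and EPHA8 a count in 1. EPHA3, EPHB1 and EPHA10 reached at most 5, 4 and 16 counts in a library, EFNA2 at most 12 and EPHA6 at most 17. None of the 6 tested genes was called by edgeR in any of the 11 comparisons, where 0.0401% to 5.88% of all genes were. At most 1 of the 6 had an unadjusted p under 0.05 in each, against 5.8% to 21.4% of all genes. EPHB6, a receptor without kinase activity, had log2 fold changes of 1.22 for guide 1 and 1.07 for parental cells against the empty vector (edgeR adjusted p 0.0865 and 0.145), and -1.68 for both guides against guide 1 (0.139).

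Of 40 genes known as partners of Eph signalling, 39 were tested. In guide 1 cells against the empty vector 7 fell and 0 rose, where 4.57% of all tested genes were called lower. In guide 2 cells 2 fell (2.73% lower) and in parental cells 1 (2.84% lower). With both guides edgeR called none (0.962% of all genes), and 9 had an unadjusted p under 0.05 (14% of all genes). MMP14, a membrane protease that cuts EPHA2, fell in guide 1 (-1.08), guide 2 (-0.92) and parental cells (-0.75; edgeR adjusted p 0.00577, 0.013 and 0.0291), from 250.3 ± 75.4 CPM in the empty vector to 119.6 ± 3.47, 133.9 ± 15.4 and 152.4 ± 23.9 CPM. ADAM10, the protease that sheds ephrins, fell by 0.36 on the log2 scale in guide 2 cells (edgeR adjusted p 0.0247). VAV3, an exchange factor that acts downstream of Eph receptors, fell in guide 1 cells from 8.80 ± 2.12 to 1.89 ± 0.739 CPM (log2 fold change -2.23, edgeR adjusted p 0.0208). ARHGEF16, an exchange factor of the ephexin group, fell from 7.93 ± 1.14 to 1.95 ± 0.787 CPM (-2.04, 0.0492), and GRIP1, a scaffold that binds ephrin-B tails, from 3.95 ± 1.65 to 0.0486 ± 0.0421 CPM, a level of 1 to 6 counts in a library (adjusted p 0.0458; SD, n = 3 each). The median log2 fold change of the 39 genes was -0.07 for guide 1, -0.07 for guide 2 and -0.05 for both guides, beside 0.02, 0.03 and -0.001 over all tested genes. When the edited lines were averaged and set against both controls, 4 of the 39 were called, against 1.51% of all genes. MMP14 (-0.55), ADAM10 (-0.28), VAV3 (-1.37) and NCK2, an adaptor of Eph and ephrin-B signals (-0.39), fell, with edgeR adjusted p of 0.0289, 0.0202, 0.0412 and 0.0367. Parental replicates 1, 2 and 3 had 4.91, 4.18 and 8.77 CPM of VAV3 and 5.79, 2.71 and 5.39 CPM of ARHGEF16. They had 3.10, 0.235 and 2.08 CPM of GRIP1. Guide 2 replicates 1, 2 and 3 had 1.46, 6.25 and 2.17 CPM of VAV3 and 22.7, 32.9 and 22.3 CPM of NCK2. In these guide 2 libraries ARHGEF16 was 2.04, 10.3 and 1.89 CPM and GRIP1 0.0542, 5.64 and 0.0434 CPM. MMP14 was 125.9, 151.6 and 124.2 CPM there, and ADAM10 147.8, 145.1 and 156.1 CPM. Empty-vector MMP14 was 201.2, 212.6 and 337.1 CPM, so its mean leans on replicate 3. Against parental cells edgeR called none of the 39 for guide 1, guide 2 or both guides. Of all genes it called 0.149%, 0.0516% and 0.195%. An unadjusted edgeR p under 0.05 was found for 14, 3 and 3 of the 39, against 19.9%, 7.37% and 9.98% of all genes. The partner calls were not checked with a library left out.

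The genes whose log2 CPM followed the called members most closely over the 15 libraries were taken from 11608 genes with an average log2 CPM of at least 1. EPHB3 had Pearson correlations of 0.98 with PRSS12 and 0.97 with RASSF5, and without guide 2 replicate 2 they were 0.98 and 0.97. EPHB2 was nearest to KLHL4 (0.96, and 0.95 over 14 libraries) and KCTD20 (0.95 and 0.93). EFNA1 was nearest to ARHGEF37 (0.95 in both) and KCNK6 (0.94 in both). These correlations describe libraries that share genotypes, and carry no test.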

How the data were processed

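Per the labels, RNA from RNeasy columns was made into libraries with a KAPA mRNA HyperPrep kit. The authors deposited raw counts per Ensembl gene, 1 column per library, and a table of CPM. The deposited CPM equal counts divided by the library total to within 4.91e-11, and levels here use them. The submitters' processing notes name Trim Galore 0.6.0, STAR 2.7.8a and GRCh38, while annotation, counting program and use of strand are not given in the sources used here. Of 60721 identifiers 60357 had a symbol in a table of gene names, and each of the 15 columns was matched to a library by the code in its title. Lengths and positions come from GENCODE release 29 (GRCh38) and promoter windows from RefSeq.

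Counts were tested with edgeR 4.0.16 in R 4.3.3. Genes passed filterByExpr by genotype (17457 genes), libraries were scaled by TMM, and 1 group-means model over 15 libraries (10 residual degrees of freedom) was fitted by quasi-likelihood. P-values are two-sided and adjusted by Benjamini-Hochberg over all tested genes within a comparison, with a threshold of 0.05. SEs were taken from the fold change and its F statistic. Log2 CPM used a prior count of 2. Alternatives were RLE scaling, no filter, DESeq2 1.42.0, voom with sample quality weights in limma 3.58.1, a replicate block, the compared genotypes alone, and each library left out. The edgeR steps were tested on simulated counts. The 10 genes and the lists were chosen with earlier results of these data known. Genes named are the 10, NF1, markers, and of the other lists the called genes, at most 4 with the largest change per comparison; other family genes named were chosen after their values were seen.

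Equal replicate numbers were checked for pairing by correlating deviations from the genotype means. Guide 1 and empty-vector libraries of the same number had correlations of 0.136 to 0.28, so the blocked values are given beside that comparison where they change a call. Over all 30 pairs the mean was -0.05. Between 24.6% and 76.8% of genes with at least 20 counts in a pair differed beyond counting noise between replicates. This check cannot tell separate cultures from repeat preparations of 1 culture. Each library was counted as a replicate because the labels call it a biological replicate.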

Additional observations from a re-analysis of the deposited data

How the results depend on the processing

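With the replicate number as a block, 4 of the 100 tests between genotypes were called in place of 5. Of all tested genes the blocked fit called 3.25%, 2.15%, 0.395% and 2.29% for guide 1, guide 2, both guides and parental cells against the empty vector. In the other pairs it called 0.0115% to 0.126%. EPHB3 in guide 1 cells was lost (-2.56, edgeR adjusted p 0.081), and no other call of these genes changed. Counts below are of the 10 genes, most with the share of all tested genes called in brackets. The fits that left out 1 library tested 17849 to 17967 genes. Against the empty vector they called 215 to 3236 of all genes for guide 1 and 170 to 2581 for guide 2. For both guides they called 21 to 1196 and for parental cells 145 to 2484. For guide 1 against the empty vector the count was 3 (5.88%), and 5 without a filter (2.76%), 5 by DESeq2 (11.1%), 10 by voom with sample quality weights (42.5%), 8 with only those genotypes in the fit (15.8%), and 0 to 8 when 1 library was left out. For guide 2 it was 2 (3.94%), and 7 by voom (33.2%), 0 with only those genotypes (0.0794%), and 0 to 5. For both guides it was 0 (0.962%), and 1 by DESeq2 (4.32%), 8 by voom (26.7%), 8 with only those genotypes (18.7%), and 0 to 3. For parental cells it was 0 (4.37%), and 1 by DESeq2 (9.22%), 6 by voom (36.3%), 1 with only those genotypes (6.85%), and 0 to 4.

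Against parental cells the count was 0 for each line. DESeq2 gave 1 for guide 1 (3.68%), voom gave 8 for guide 1 (52.9%), 6 for guide 2 (32.5%) and 3 for both guides (21.3%), and leaving out 1 library gave 0 to 4, 0 to 3 and 0 to 0. Between lines it was 0, and for both guides against guide 1 voom gave 6 (46.5%), those genotypes alone 5 (7.67%), and leave-one-out fits 0 to 1. For both guides against guide 2 DESeq2 gave 1 (0.859%), voom 4 (15.2%) and leave-one-out fits 0 to 0, and for guide 1 against guide 2 voom gave 3 (20.2%) and leave-one-out fits 0 to 0. With the edited lines averaged against the controls it was 0 (1.51%), and 2 without a filter (0.868%), 3 by DESeq2 (5.32%), 10 by voom (42%) and 0 to 7. Among all genes, the fits that left out 1 library called 6 to 2591, 2 to 1064 and 4 to 467 against parental cells. These are for guide 1, guide 2 and both guides. For both guides they called 4 to 827 against guide 1 and 2 to 327 against guide 2. For guide 1 against guide 2 they called 2 to 593, and for the averaged lines against the controls 59 to 3213. The cause of the differences between settings was not tested.

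Among 2300 values of single genes under the alternatives, 5 reversed while called. For guide 2 against parental cells these were EPHA1 at -2.29 and EFNB1 at -1.22 by voom and EFNB1 at -1.24 without guide 2 replicate 2. Over the fits that left out 1 library, that EFNB1 value ran from -1.24 to 0.54. For both guides against guide 2 they were EPHA1 at 2.88 and EFNB1 at 0.97 by voom. A further 74 values that were called in neither fit changed sign. RLE scaling moved the median of all genes by less than the 0.1 that would matter here and kept each of the 11 counts. Depth limits EPHA1 most, with as few as 7 counts in a library.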
